A study of Mus musculus with 4 samples.

Results

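The 39 mouse Hox genes encode homeodomain transcription factors and lie in 4 clusters, Hoxa on chromosome 6, Hoxb on chromosome 11, Hoxc on chromosome 15 and Hoxd on chromosome 2. Every array probe whose gene name was Hox, a cluster letter and a number was taken, which gave 45 of the 39429 non-control probes and all 39 genes. The brightest probe stood for each gene. Of these genes, 21 were bright enough to be tested among 17362 tested genes.

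Hox genes are numbered 1 to 13 by paralogue group, and their order along the chromosome follows the order in which they are switched on and their front-to-back domains in the embryo. Adult cells keep a record of their position as a Hox code, held open or silent by Trithorax and Polycomb complexes, and PBX and MEIS proteins bind DNA together with the Hox proteins. In vessels and blood, Hox factors are known for roles in angiogenesis, in endothelial quiescence and in blood stem cells.

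RNA came from spleens of Ackr4GFP/wt mice, in which 1 Ackr4 allele carries green fluorescent protein (GFP). ACKR4 is an atypical receptor that takes up chemokines, and the study compared splenic endothelial cells with and without it. Living CD45- CD31+ single cells were sorted as ACKR4-GFP+ (here ACKR4-positive) or ACKR4-GFP- (ACKR4-negative). Both groups carry the same reporter genotype, no age or sex was given, and the gate rests on GFP, so its exactness depends on how the reporter follows Ackr4. There were 2 independent sorts, each from 2 to 3 pooled mice, with 1 array of each group per sort (replicates 1 and 2) on 1-colour Agilent arrays, and the number of arrays limits the precision. Separate pools underlie the replicates. The p-values rest on the spread between 2 pools per group, with each gene's variance drawn by limma towards that of all tested genes. Both groups came from the same 2 sorts, and the main fit does not use this pairing, which enters only where the sort is a block.

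A level is the log2 signal of a probe minus the 75th percentile of its array, so that 0 is that percentile. Ackr4 stood at -7.53 and -7.50 in ACKR4-negative replicates 1 and 2, not well above background, and at -0.21 and 2.55 in ACKR4-positive cells. This was higher by at least 6.75 on the log2 scale (measured log2 fold change 8.69 ± 0.95, SE, n = 2 per group, limma adjusted p = 0.0181, and 4.81 with normexp background correction). All 12 endothelial markers were well above background on all 4 arrays. Their summed linear signal, relative to the 75th percentile, was 593 and 490 on the ACKR4-negative arrays against 439 and 343 on the ACKR4-positive ones. Of the 12, 6 had both ACKR4-positive arrays lower and 1 had both higher, against 21.6% and 23.3% of all tested genes. Summed signals of other marker lists differed between the groups. The platelet list stood at 90.0 and 212 against 1.26 and 2.64, the arterial list at 80.1 and 103 against 7.17 and 13.4, the mural list at 60.3 and 101 against 2.95 and 3.35, the fibroblastic reticular list at 17.0 and 20.3 against 6.92 and 7.13, and the blood progenitor list at 78.5 and 105 against 20.8 and 18.7. The sinusoidal list summed to 219 and 161 against 452 and 596. Its member with the largest rise was Clec4g, at levels of 2.31 and 3.59 against 7.43 and 8.57. Of the 10 sinusoidal members 3 had both ACKR4-positive arrays higher and 4 had both lower, against 23.3% and 21.6% of all tested genes. In these bulk samples fewer cells of a type and less RNA per cell cannot be told apart, and the part these other cells have in the Hox values below was not tested.

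Probes of different Hox genes shared short runs of sequence. The longest run of bases in common was 15, between Hoxa3 and Hoxb3. The core of the homeobox, read here as the codons TGG, TTN and CAN followed by AA, which codes for the part of the homeodomain that enters the major groove of DNA, was found on either strand in 38 of 39429 probes (0.0964%) and in 2 of the 45 Hox probes. The probe of Hoxc11 (mm9 chr15:102787022-102787081, plus strand), which was not well above background on any array, is shown as an example with the core in capitals.
Hoxc11: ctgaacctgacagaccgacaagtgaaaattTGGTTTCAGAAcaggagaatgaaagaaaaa

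Both sorted populations expressed Hox genes, mainly those of the front and middle of the Hoxa and Hoxb clusters. Detection means that more than 50% of a probe's spots on the array passed the scanner software's test of being well above background. On ACKR4-negative arrays 19 and 23 Hox genes were detected, and on ACKR4-positive arrays 21 and 21. On all 4 arrays 18 were detected, on none 15, and on some but not all 6 (Hoxa6, Hoxc6, Hoxc10, Hoxc12, Hoxd9 and Hoxd10). Hoxa6 and Hoxc4 had exactly 50% of their spots past that test in ACKR4-negative replicate 2 and so fell just outside.

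**Figure D1:**
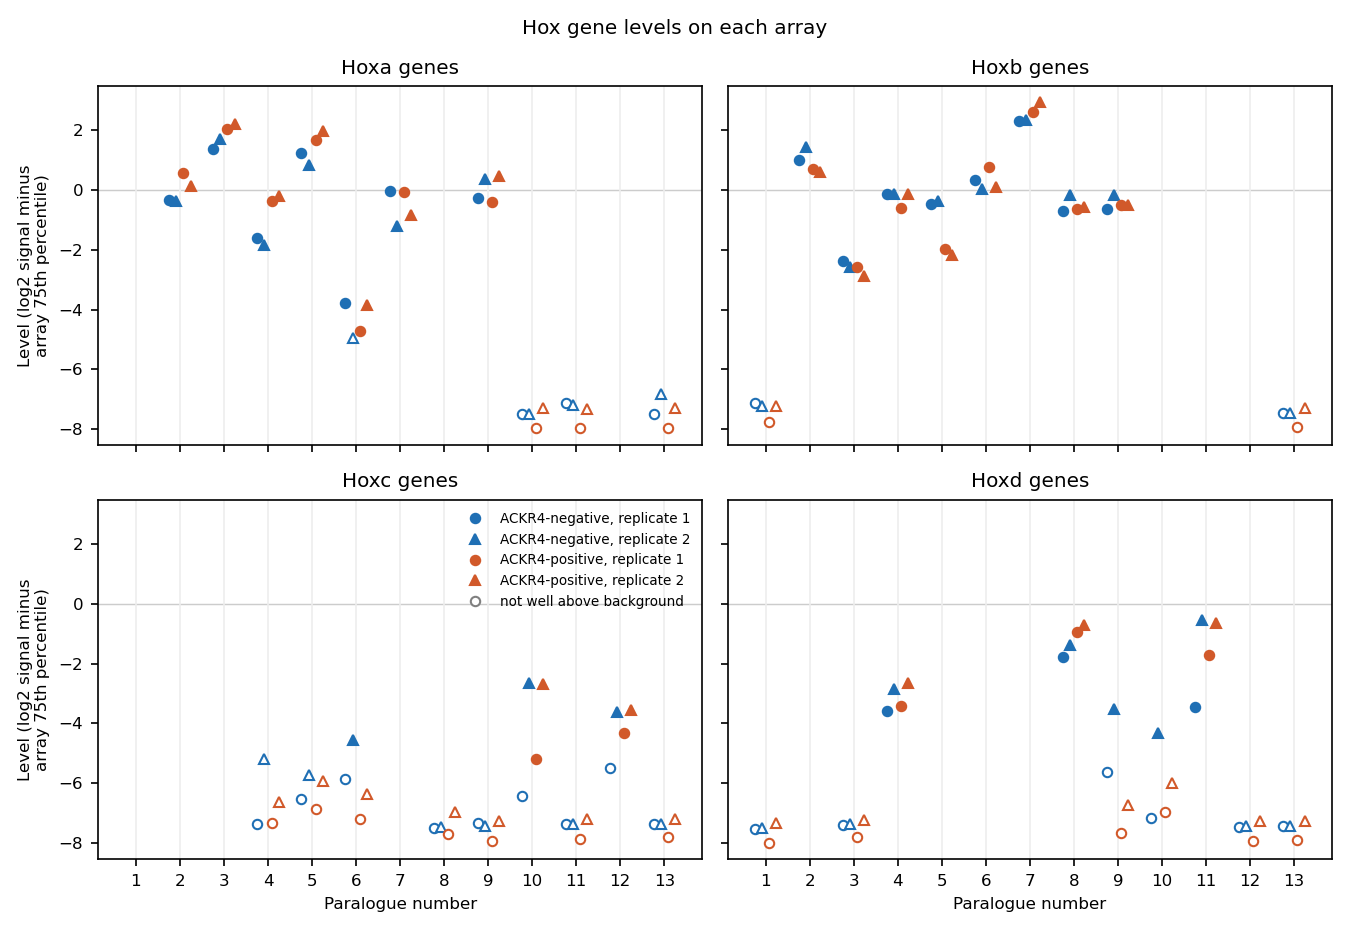
Level of Hox genes on each array (log2 signal minus the array's 75th percentile, brightest probe) by paralogue number and cluster, blue for ACKR4-negative and orange for ACKR4-positive cells, circles for replicate 1 and triangles for replicate 2, open where not well above background. Hoxa2 to Hoxa7, Hoxa9 and Hoxb2 to Hoxb9 carry signal in both groups, and most Hoxc genes and the outer Hoxd genes lie at the background near -7.

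The clusters differed in how much of them was detected. In Hoxa, 7 of 11 genes were detected on all 4 arrays, among them Hoxa2 to Hoxa5, Hoxa7 and Hoxa9, and 3 on none. In Hoxb, 8 of 10 were, the unbroken row from Hoxb2 to Hoxb9, while Hoxb1 and Hoxb13 at its ends were detected on none. In Hoxc, 0 of 9 were detected on all 4 arrays, and in Hoxd 3 of 9, Hoxd4, Hoxd8 and Hoxd11. By paralogue group, 5 of 8 genes of groups 1 to 3, 10 of 15 of groups 4 to 8 and 3 of 16 of groups 9 to 13 were detected on all 4 arrays. The 15 genes detected on no array had levels of -8.00 to -5.21. On these arrays the lowest level well above background was between -6.03 and -5.31, so such genes may still have RNA below that bound.

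**Figure D2:**
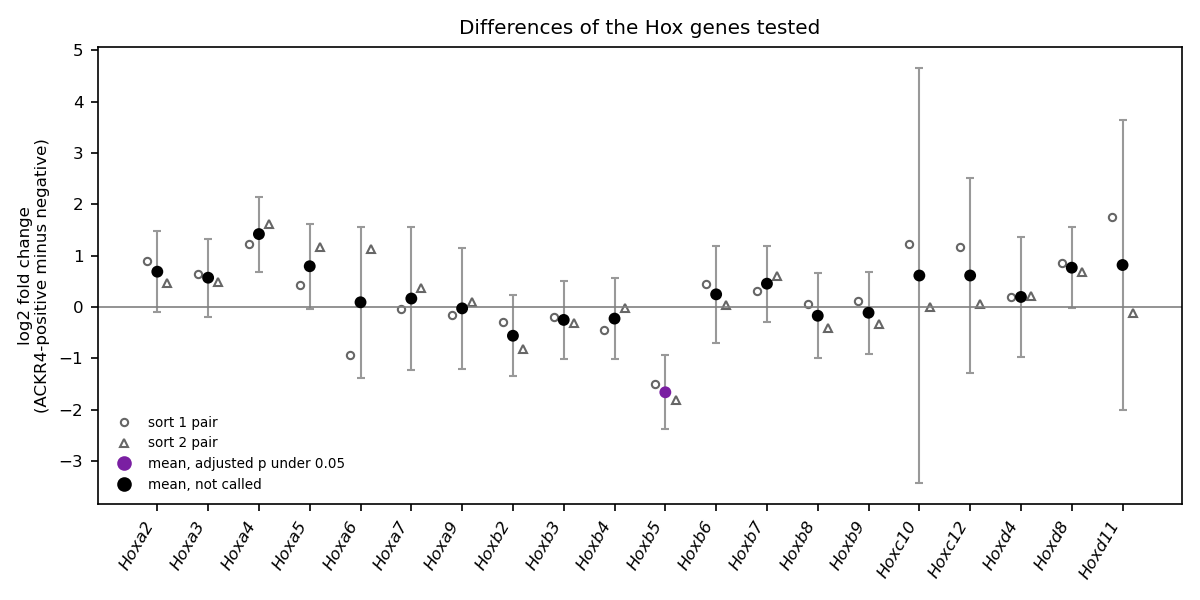
Log2 fold change of tested Hox genes, ACKR4-positive minus ACKR4-negative, as the mean (filled, bars are 95% confidence intervals of the fit, n = 2 arrays per group) and in each sort pair (open). Hoxb5 at -1.66 is the only one called, Hoxa4 at 1.42 is next in size, and the bars of Hoxc10 and Hoxd11 are the widest.

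Between the groups, 1 of the 21 tested Hox genes changed, Hoxb5, which was lower in ACKR4-positive cells. Over all tested genes, limma (Benjamini-Hochberg adjusted p under 0.05) called 5.62% in either direction, 1.91% higher and 3.71% lower. With the sort as a block it called 15.3% of all genes, 6.75% higher and 8.55% lower, and 2 Hox genes, Hoxb5 lower and Hoxa4 higher. The pair of ACKR4-positive arrays lay wholly above the ACKR4-negative pair for 6 Hox genes and wholly below it for 2, while the groups overlapped for 13. Among all tested genes 44.9% did not overlap, 23.3% higher and 21.6% lower, so the Hox share of 8 in 21 was no larger than that of the array. The median log2 fold change was 0.20 over the tested Hox genes and 0.04 over all tested genes, and the median size of the difference was 0.46 against 0.36. A difference under 2-fold was found for 19 of the 21 (90.5%), against 82.9% of all tested genes.

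Hoxb5, which is known as a marker of long-term blood stem cells and as an activator of the VEGF receptor gene Kdr in vessel precursors, was read by 1 probe at chr11:96167130-96167189 (mm9, plus strand). Its level was -0.46 and -0.35 in ACKR4-negative replicates 1 and 2, against -1.96 and -2.17 where ACKR4 was present. Both ACKR4-positive arrays were below both ACKR4-negative arrays, by more than either group's own spread. The log2 fold change was -1.66 ± 0.27 (SE, n = 2 per group, 95% interval -2.38 to -0.94), or 3.16-fold lower, with a limma adjusted p of 0.0451 and, with the sort as a block, of 0.00859. The call is close to the threshold. Leaving out any 1 of the 4 arrays gave an adjusted p of 0.124 to 0.264, with a log2 fold change of -1.76 to -1.56. With all probes tested, dim ones included, the adjusted p was 0.0745. Summed signals of the blood progenitor, platelet and arterial marker lists were lower in the same arrays, with values given above. The blood progenitor sum rests mostly on its brightest member, Cd34, at 6.09 and 6.54 against 4.14 and 3.98. In that list 5 of 9 members had both ACKR4-positive arrays lower and 0 had both higher, against 21.6% and 23.3% of all tested genes. Of the members counted as lower, Gfi1 was not well above background on any array. Myb was well above background only in ACKR4-negative replicate 1, so the count holds differences at background. The part of such cells in the Hoxb5 difference was not tested.

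The rest of the Hoxb row gave no further call. Hoxb2 had levels of 0.99 and 1.43 in ACKR4-negative against 0.69 and 0.61 in ACKR4-positive cells. The ACKR4-positive arrays were both lower, but the log2 fold change of -0.56 ± 0.30 was not called (limma adjusted p = 0.501, 95% interval -1.35 to 0.23). Hoxb4, used to expand blood stem cells, stood at -0.15 and -0.13 against -0.58 and -0.14, with overlap of the groups (-0.22 ± 0.30, interval -1.01 to 0.57). Hoxb7 stood at 2.31 and 2.33 against 2.62 and 2.94. Its ACKR4-positive arrays were both higher (0.46 ± 0.28, adjusted p = 0.574). Hoxb4 and Hoxb6, on either side of Hoxb5, were not called. Hoxb6 stood at 0.33 and 0.04 against 0.77 and 0.09, with overlapping groups (0.25 ± 0.36). Hoxb8, at -0.69 and -0.16 against -0.63 and -0.56, and Hoxb9, at -0.63 and -0.16 against -0.51 and -0.50, likewise overlapped, with log2 fold changes of -0.17 ± 0.31 and -0.11 ± 0.30.

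Hoxb3, linked to capillary growth, was read by 2 bright probes. The one that stood for the gene (chr11:96209002-96209061) gave -2.38 and -2.58 against -2.57 and -2.89, with overlapping groups (-0.25 ± 0.29, limma adjusted p = 0.801). The second probe gave -2.17 and -1.94 against -3.44 and -2.89, and its groups did not overlap. Its log2 fold change was -1.11 ± 0.34, with an adjusted p of 0.204 over all tested probes. The 2 probes thus gave differences of unequal size and neither was called. They were nearly equal in mean brightness, and the counts of Hox genes given above use the first. With the gene's probes averaged the log2 fold change was -0.68 (limma adjusted p = 0.313).

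Of the 8 tested Hoxa genes 4, the neighbours Hoxa2 to Hoxa5, had both ACKR4-positive arrays above both ACKR4-negative arrays. Over all tested genes the share was 23.3%. None of these 4 Hoxa genes was called without the block. Hoxa4 (chr6:52140287-52140346, minus strand) stood at -1.60 and -1.82 in ACKR4-negative against -0.37 and -0.20 in ACKR4-positive cells. Its log2 fold change was 1.42 ± 0.28 (SE, n = 2 per group, 95% interval 0.69 to 2.15), or 2.68-fold, with a limma adjusted p of 0.0692 and, with the sort as a block, of 0.0155. Its level differed between groups by far more than within them.

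Hoxa5, known to act in lung development and to hold back endothelial sprouting, stood at 1.23 and 0.82 against 1.67 and 1.99 (0.80 ± 0.31, adjusted p = 0.327). Hoxa3, needed for the thymus and parathyroid and known to aid vessel growth in wounds, stood at 1.39 and 1.71 against 2.04 and 2.21 (0.57 ± 0.29, adjusted p = 0.463). Hoxa2, which patterns the hindbrain and the second branchial arch, stood at -0.34 and -0.35 against 0.56 and 0.12 (0.69 ± 0.30, adjusted p = 0.384). For these 3 genes the 95% intervals ran from -0.03 to 1.62, from -0.19 to 1.33 and from -0.10 to 1.48, so a rise of over 2-fold and no difference both lie inside. A second Hoxa3 probe gave -2.88, -2.87, -0.22 and -3.68 in ACKR4-negative replicates 1 and 2 and ACKR4-positive replicates 1 and 2. There 1 ACKR4-positive array was far above the other 3, and the probe's log2 fold change of 0.92 ± 1.17 was not called.

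Further along the Hoxa cluster the groups overlapped. Hoxa9, needed for blood stem cells and known to act in endothelial precursors, had levels of -0.25 and 0.38 in ACKR4-negative against -0.40 and 0.48 in ACKR4-positive cells (-0.02 ± 0.44, with the sign turned to 0.045 by centring on the median and to 0.028 by averaging the gene's probes). Hoxa7 had -0.03 and -1.20 against -0.07 and -0.82 (0.17 ± 0.53). In Hoxa7 both arrays of replicate 1 were the higher ones, and in Hoxa9 both of replicate 2. Hoxa6 had -3.78 and -4.96 against -4.72 and -3.83 (0.09 ± 0.55, and -0.059 with normexp background correction). A 95% interval that lay wholly within 2-fold in both directions was obtained for 2 of the 21 tested genes, Hoxb9 among them, so for the others a missing call leaves larger differences possible.

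In Hoxd, Hoxd8 had levels of -1.79 and -1.39 in ACKR4-negative against -0.93 and -0.72 in ACKR4-positive cells. Its ACKR4-positive arrays were both higher, and the log2 fold change of 0.77 ± 0.30 was not called (limma adjusted p = 0.323, 95% interval -0.02 to 1.56). Hoxd4 had -3.60 and -2.85 against -3.41 and -2.64, with overlap (0.20 ± 0.44). Its pair of replicate 2 arrays was higher than its pair of replicate 1 arrays, as in several genes of the back of the clusters.

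At the back of the clusters, the 5 tested of 16 genes in groups 9 to 13 had larger differences between the sorts than between the groups, and Hoxc10 was called between the sorts. All 5 had both arrays of replicate 2 above both arrays of replicate 1, against 9 of the 21 tested Hox genes and 29.9% of all tested genes. Hoxc10, a gene of the hindlimb and lower trunk, had levels of -6.43 and -2.66 in ACKR4-negative replicates 1 and 2 and of -5.19 and -2.67 in ACKR4-positive replicates 1 and 2. Replicate 2 was higher by 3.14 ± 0.35 on the log2 scale (limma with group and sort, adjusted p = 0.0204, against 5.54% of all tested genes called between sorts and 3.63% called higher in replicate 2). It was not well above background on 1 array, ACKR4-negative replicate 1, so that this size is not a bound. Its difference between the groups was 0.62 ± 1.53, and 0.022 with normexp.

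Hoxd11, which patterns the forelimb and the kidney, had levels of -3.45 and -0.53 in ACKR4-negative against -1.70 and -0.64 in ACKR4-positive replicates 1 and 2. ACKR4-negative replicate 1 was the lowest array and both arrays of replicate 2 were close to each other. Between sorts it differed by 1.99 ± 0.46 (adjusted p = 0.0703) and between groups by 0.82 ± 1.06, with a 95% interval of -2.00 to 3.64. A second Hoxd11 probe was not well above background on any array, at -7.90 to -7.25. Hoxc12 had -5.50 and -3.64 against -4.34 and -3.57, with a sort difference of 1.32 ± 0.32 (adjusted p = 0.0769) and a group difference of 0.62 ± 0.72. It too was not well above background in ACKR4-negative replicate 1.

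**Figure D3:**
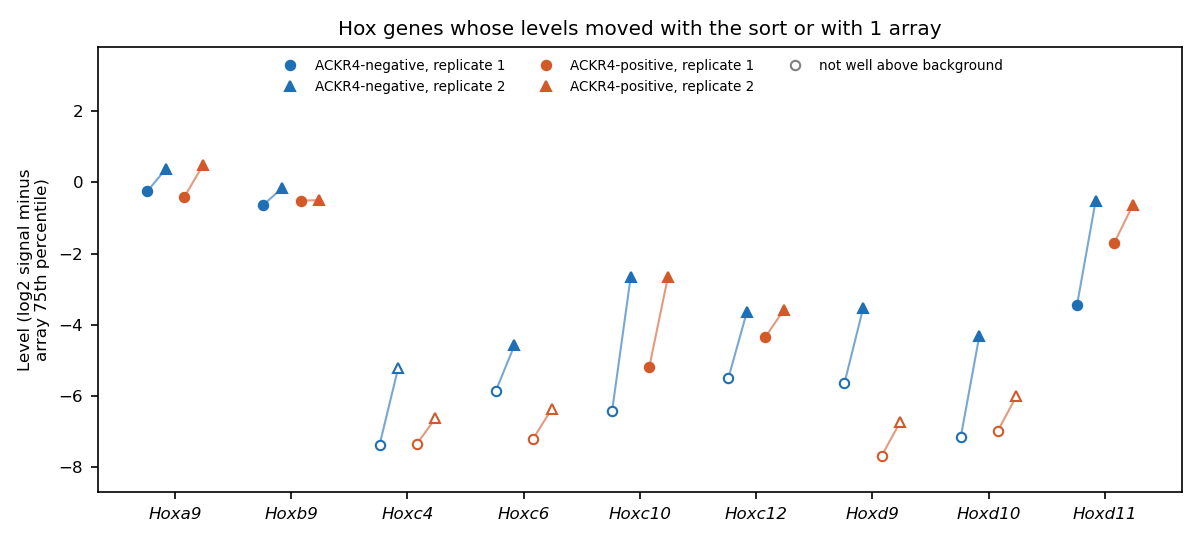
Levels of 9 Hox genes on each array, chosen after their values were seen, with lines joining replicate 1 to replicate 2 of the same group and open symbols where not well above background. Replicate 2 lies above replicate 1 in both groups for each of the 9 genes, and Hoxc6, Hoxd9 and Hoxd10 are filled only in ACKR4-negative replicate 2. In ACKR4-positive cells Hoxc4, Hoxc6, Hoxd9 and Hoxd10 are open in both replicates. There the background also lies higher in replicate 2, as for undetected Hoxc11 (-7.86 and -7.19, not drawn). Hoxb9 is nearly level in ACKR4-positive cells (-0.511 and -0.499).

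In 3 further genes of Hoxc and Hoxd the only array with signal was ACKR4-negative replicate 2. Hoxd9 had levels of -5.63 and -3.54 in ACKR4-negative against -7.67 and -6.72 in ACKR4-positive replicates 1 and 2. Hoxd10 had -7.16 and -4.31 against -6.97 and -5.99, and Hoxc6 had -5.85 and -4.57 against -7.20 and -6.37. Because each was well above background on 1 array, none was tested and no fold is given.

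On ACKR4-negative replicate 2 the platelet, arterial, mural and fibroblastic reticular lists had their highest summed signals, as given above. Between the sorts, 6 of 8 leukocyte markers and 4 of 6 mesothelial markers had both arrays of replicate 2 above both of replicate 1. Over all tested genes the share was 29.9%. Those 4 mesothelial markers were not well above background on either ACKR4-negative array. For Upk1b these 2 arrays were nearly equal, at -7.47 and -7.46, so the count holds differences at background. The leukocyte list summed to 23.2 and 21.6 in ACKR4-negative and ACKR4-positive replicate 1, and to 43.3 and 84.3 in replicate 2. That sum rests mostly on Itgam, at levels of 4.33 and 4.35 in replicate 1 and of 5.29 and 6.36 in replicate 2. Ptprc, the gene of CD45, was well above background only in ACKR4-positive replicate 2. The mesothelial list summed to 0.0711 and 0.0891 in replicate 1, and to 0.12 and 0.871 in replicate 2. Msln, which defines mesothelium, was not well above background on either ACKR4-negative array. It was well above background on both ACKR4-positive arrays, at -4.30 and -1.62. Wt1 of the same list went the other way, well above background only on the ACKR4-negative arrays, at -4.65 and -3.83. The erythroid list summed to 373 in ACKR4-negative replicate 1 and to 16.4 to 59.3 on the other 3 arrays, and the median spike-in signal there was 837 against 2749 to 3489. The part of other cells and of array quality in the sort differences was not tested.

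Between the Hox probes of each cluster lie 16 other probes, taken by position after values were seen. Of these, 8 were tested and 2 called, against 5.62% of all tested genes. The 16 probes are named as in the files, since no mm9 annotation was used here. The probe ENSMUST00000150698 lies on the minus strand at chr11:96152394-96152453, between the probes of Hoxb7 and Hoxb6, which lie on the plus strand. The AI448005 probe lies on the plus strand at chr2:74569698-74569757, between those of Hoxd4 and Hoxd3. Their sequences are given because they mark the 2 places inside the clusters, besides Hoxb5, where a difference was called.
ENSMUST00000150698: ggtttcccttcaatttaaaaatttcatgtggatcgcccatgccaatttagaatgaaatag
AI448005: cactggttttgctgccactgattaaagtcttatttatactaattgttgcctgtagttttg

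ENSMUST00000150698 had levels of 2.50 and 2.86 in ACKR4-negative against -1.31 and -0.76 in ACKR4-positive cells. Both ACKR4-positive arrays were far below both ACKR4-negative arrays, while Hoxb7 and Hoxb6 at its sides were not called. Its log2 fold change was -3.71 ± 0.34 (SE, n = 2 per group, 95% interval -4.61 to -2.82, limma adjusted p = 0.0136), and leaving out each array gave -3.99 to -3.44 with adjusted p of 0.0269 to 0.0471. AI448005 had -6.33 and -6.83, not well above background, against -4.33 and -4.26, which is at least 2.43-fold higher in ACKR4-positive cells. The measured log2 fold change was 2.29 ± 0.31 (adjusted p = 0.0286), and with normexp background correction it was 0.45 with an adjusted p of 0.626. The call was also lost on leaving out any 1 array (adjusted p 0.0772 to 0.146). Gm53, between Hoxb13 and Hoxb9, stood at -2.06 and -2.38 against -3.38 and -3.72 and was not called (-1.33 ± 0.30, adjusted p = 0.104, and 0.015 with the sort as a block). Hoxa11as, the antisense transcript of Hoxa11, was well above background on 1 array of each group and was not tested.

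**Figure D4:**
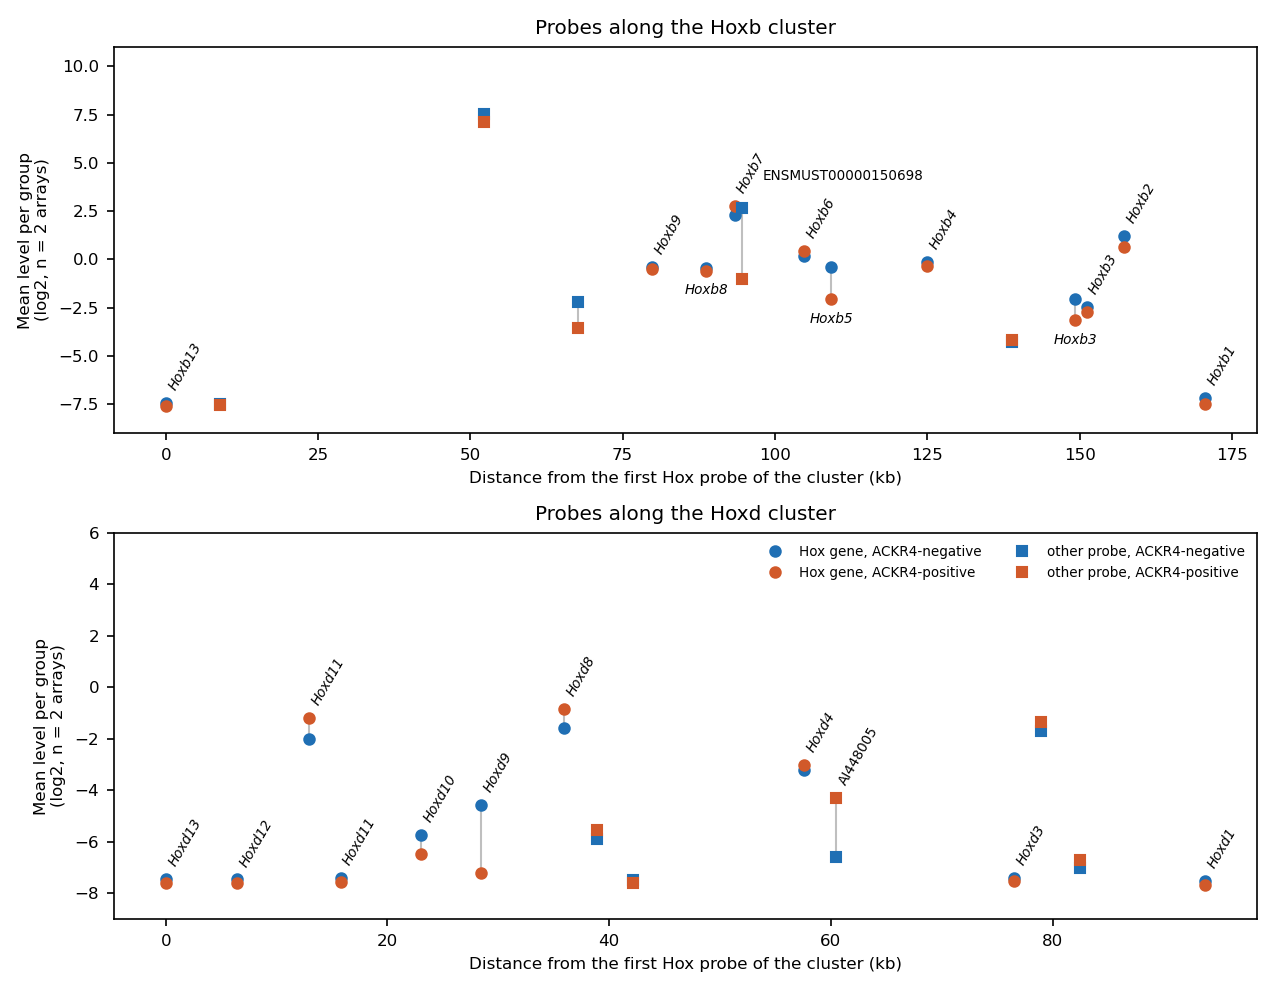
Mean level per group (log2, n = 2 arrays) of every probe between the outermost Hox probes of the Hoxb and Hoxd clusters, by distance from the first, with circles for Hox genes, squares for other probes and a grey line joining the groups. The widest gap in Hoxb is at ENSMUST00000150698, with Hoxb5 lower in ACKR4-positive cells nearby, and in Hoxd the gaps of Hoxd9 and AI448005 involve arrays not well above background.

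Upstream sequence was described for the 22 Hox genes that matched the RefSeq promoter table (GRCm38.p6, the 250 bases before the gene start). The median number of CG pairs was 12.5, against 6 over all 32851 promoters, and the median GC content was 56.8% against 52.4%. Promoters of the 10 matched genes detected on all 4 arrays held a median of 9 pairs (3 to 28), and those of the 9 detected on none held 13 (7 to 35). The ranges overlapped. The PBX and Hox motif TGATTNAT, searched on both strands, was found in 2 of the 22 promoters (9.09%), those of Hoxa2 and Hoxd11, and in 2.83% of all promoters. A match is a description of letters and not a binding site.

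Of 9 genes for partners of the Hox proteins 7 were tested, while Pbx4 and Pknox2 were too dim. Of the 7, 0 were called by limma (0 at an unadjusted p under 0.05), against 5.62% of all tested genes. In the fit with the sort as a block 1 was called, against 15.3% of all tested genes. The median log2 fold change of the 7 partner genes was -0.04. Meis2, a cofactor that binds DNA with Hox and PBX proteins, stood at 1.16 and -0.11 in ACKR4-negative against 2.21 and 1.31 in ACKR4-positive replicates 1 and 2. It was higher in ACKR4-positive cells within each sort (1.24 ± 0.58, limma adjusted p = 0.430, and 0.0235 with the block). Leaving out 1 array gave 0.60 (without ACKR4-negative replicate 2) to 1.88 (without ACKR4-negative replicate 1). Meis3 and Pbx2 had log2 fold changes of -0.39 ± 0.27 and -0.20 ± 0.29.

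Chromatin regulators that keep Hox genes open or silent gave 0 calls by limma among 23 tested of 25 (3 at an unadjusted p under 0.05), with a median log2 fold change of 0.01. With the sort as a block 8.55% of all tested genes were called lower, and 3 of the 23 regulators were lower in ACKR4-positive cells. These were Cbx2, a Polycomb reader of histone methylation (-1.45 ± 0.39, limma adjusted p = 0.151, block 0.0242), Dot1l, a histone methyltransferase (-1.08 ± 0.47, block 0.0304), and Phc3, a Polycomb subunit (-0.98 ± 0.43, block 0.0389). Cbx2 stood at -0.94 and -1.06 in ACKR4-negative against -2.02 and -2.88 in ACKR4-positive cells, with no overlap, but with the spots marked as outliers kept its log2 fold change was -0.0078 (limma adjusted p = 0.999). The next smallest p-values were those of Rbbp5, a Trithorax subunit (0.86 ± 0.29), Pcgf2, a Polycomb subunit (-0.81 ± 0.28), and Kdm6b, which removes the Polycomb mark (0.67 ± 0.28), none of them called. Kmt2a and Cbx8 were not tested.

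Among retinoid genes and other upstream regulators, 2 of 13 tested rose in ACKR4-positive cells and none was called lower. Over all tested genes 1.91% were called higher and 3.71% lower. The median of the list was 0.59, against 0.04 over all tested genes. Aldh1a3, an enzyme that makes retinoic acid, stood at -4.39 and -3.54 against -0.58 and -1.10 and rose by 3.12 ± 0.42 (limma adjusted p = 0.0288), or by 2.05 with normexp. Aldh1a1, which makes retinoic acid too, stood at 2.68 and 3.31 against 4.58 and 4.69 (1.64 ± 0.33, adjusted p = 0.0789, block 0.0114). The fit with the block also called Rarb, a retinoic acid receptor (1.05 ± 0.72, block 0.0314). Aldh1a2 was not well above background on either ACKR4-negative array and stood at -5.40 and -2.70 in ACKR4-positive cells. By the group means this was at least 2.73-fold higher, but it was not called (limma adjusted p = 0.579, 95% interval -0.98 to 4.00). With normexp the log2 fold change was 0.44, below that bound. The bound rests on ACKR4-positive replicate 2, without which the log2 fold change was 0.16. On this array the mesothelial list also had its highest sum, with 4 of 6 markers well above background against 1 on each other array, and the part of such cells in the Aldh1a2 value was not tested. Of the list's members, Cyp26a1, Cyp26c1, Crabp1, Cdx1, Cdx2, Cdx4 and Gdf11 were not tested. On leaving out 1 array at a time, Aldh1a3 kept its call in 2 of 4 fits.

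Of 14 homeobox genes outside the clusters 7 were tested, and the median was 0.20. Of these 7, 1 rose and 1 fell, against 1.91% called higher and 3.71% called lower over all tested genes. Meox1, a homeobox gene of the somites, stood at -0.79 and -0.18 in ACKR4-negative against 2.13 and 2.56 in ACKR4-positive cells and rose by 2.84 ± 0.36 (limma adjusted p = 0.0244). Its relative Meox2, which restrains growth of vessel cells, fell. It stood at -4.49 and -3.66 against -6.67 and -6.45, not well above background on either ACKR4-positive array, at least 3.02-fold lower (-2.48 ± 0.39, adjusted p = 0.0400). With normexp background correction the Meox2 value was -0.65 with an adjusted p of 0.509. Leaving out any 1 array ended both calls, with adjusted p of 0.0566 to 0.101 for Meox1 and 0.0663 to 0.146 for Meox2. Tlx1, without which no spleen forms, stood at -3.23 and -2.49 against -4.90 and -6.47 (-2.82 ± 0.63, adjusted p = 0.0993, block 0.0298). It was well above background on 1 of the 2 ACKR4-positive arrays, so this size is not a bound, and with normexp it was -1.04. Nkx2-5 followed with -1.36 ± 0.47 (adjusted p = 0.267, block 0.0499), which was -0.70 with normexp and -0.77 without ACKR4-negative replicate 2. Mural and fibroblastic reticular markers were lower in the same arrays, and their part in these differences was not tested.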

How the data were processed

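Per the submitters' processing notes, the authors read the scans in Agilent Feature Extraction (version 10.7.3.1). These signals are intensities, which the software had background-subtracted and left unscaled between arrays, per the file headers, with probe positions on mm9. A table of the authors' deposited intensities (lowest value 15, 75th percentile 1498 to 1506) served as an alternative. Outlier spots (1.91% to 1.96%) were dropped, log2 values were averaged over each probe's remaining spots, and the array's 75th percentile was taken off. Testing required that more than 50% of the spots pass the background test on both arrays of at least 1 group. The brightest tested probe stood for a gene. Groups were compared with limma 3.58.1 in R 4.3.3 (2-sided, Benjamini-Hochberg over 17362 genes, threshold 0.05). Figures used Python 3.11.15 and matplotlib 3.10.9. Where a gene was not well above background in a group, "at least" folds set that group to the higher of its level and the lowest level well above background on each array.

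The members and lists were chosen with earlier results of these data known. Named genes were Ackr4, tested Hox genes, other Hox genes needed for a count, and up to 4 genes of smallest p per list. Dot1l, Phc3, Rarb and the other probes inside the clusters were named after their values were seen. Names came from RefSeq by accession for 27508 probes, by symbol for 3544 and through another probe for 167, and 8210 kept the file's name. Replicate number was read as the sort, since arrays that share it also share a mouse number in their titles and the design names 2 sorts. Deviations from group means correlated at 0.605 over genes between the groups. Between 54.9% and 58.3% of probes were well above background per array, and 0 were saturated. The fit was tested on simulated data of 17362 genes, with 50 genes changed at each size. It called 0 of 50 at a true 2-fold change and 0 of 50 at 4-fold. At 16-fold it called 36 and at 64-fold 44, with 4 false calls. Fewer genes were changed there than limma called in the data, which makes the adjusted threshold stricter, so these rates cannot be carried over. In the data Hoxb5 was called at 3.16-fold. The 95% interval lay wholly within 2-fold for 2 of the 21 tested Hox genes. For the others a missing call says little about changes near 2-fold. Some genes and sequences that the rule takes are counted but not reported here.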

Additional observations from a re-analysis of the deposited data

How the results depend on the processing

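With 2 arrays per group, missing calls leave wide intervals. With the sort as a replicate block 2656 genes and 2 Hox genes were called in place of 976 and 1, and 44.1% of called genes were higher in ACKR4-positive cells in place of 34.0%. With no filter on dim probes 0 Hox genes were called by limma (4 at an unadjusted p under 0.05). Leaving out each array in turn gave 387 to 892 called genes and 0 Hox genes each time (2 to 4 at an unadjusted p under 0.05). The other alternatives (normexp, quantile and median scaling, a stricter filter, a floor of 15, the authors' values, averaged probes, a fit by probe, outlier spots kept and a trended prior) called 1 Hox gene each, Hoxb5. Directions turned for Hoxa6 with normexp (-0.059) and for Hoxa9 with median centring (0.045) and with averaged probes (0.028). When an array was left out, log2 fold changes of several uncalled genes crossed 0. They ranged from -0.50 to 0.68 for Hoxa6, -0.42 to 0.75 for Hoxa7, -0.47 to 0.42 for Hoxa9, -0.093 to 0.59 for Hoxb6, -0.43 to 0.10 for Hoxb8, -0.34 to 0.13 for Hoxb9, -1.27 to 2.50 for Hoxc10, -0.32 to 1.55 for Hoxc12, -0.19 to 0.58 for Hoxd4 and -0.64 to 2.28 for Hoxd11. The cause was not tested. The slide could not serve as a block, as all arrays share 1.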

Other observations

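A probe without a gene name between those of Hoxb13 and Hoxb9 (A_55_P1998848, mm9 chr11:96110121-96110180, plus strand) had levels of 7.42 and 7.63 in ACKR4-negative and of 6.76 and 7.49 in ACKR4-positive cells, and was not called (-0.40 ± 0.36, limma adjusted p = 0.742). The probe 1700109F18Rik, between Hoxd8 and Hoxd4, was well above background on 1 array, ACKR4-positive replicate 2, at -4.11.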
